A study of Rattus norvegicus with 6 samples.

Results

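The genes described here are those whose rat symbol starts with Zfp or Znf followed by a digit, the naming used for zinc finger proteins. A site belonged to the set when the RefSeq transcript to which the authors had assigned it mapped to such a symbol. This gave 392 CpG sites of 71 genes, out of 32674 annotated nuclear sites of 8016 genes. Methylation was measured by reduced representation bisulfite sequencing (RRBS), in which DNA is digested with MspI and unmethylated cytosines are converted, so that each value is the percent of reads that kept a C at a CpG. The tissue was the dorsal root ganglion (DRG), which holds the cell bodies of sensory neurons together with their glia. All rats were adult male Sprague-Dawley animals. In the SNL group (spinal nerve ligation, a neuropathic pain model) spinal nerves L5 and L6 of the left side were tied, and in the Sham group the operation was done without a ligature. Both groups had 3 libraries taken 3 weeks after surgery. The sham operation was on the contralateral side per the labels, so libraries of both groups may come from the same animals, and the labels do not say which libraries are separate animals. A p-value here is set against the spread between libraries, part of which may be technical.

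Most proteins of this family carry tandem C2H2 zinc fingers, each a short fold held by a zinc ion that contacts a few bases of DNA. Many also carry a KRAB domain, which recruits the corepressor TRIM28 and through it the histone methyltransferase SETDB1, heterochromatin proteins and DNA methyltransferases, and so silences retrotransposons and imprinted loci. Other members act without KRAB: the CCCH proteins Zfp36l1 and Zfp36l2 bind AU-rich elements of mRNAs and promote their decay, and Zfp521, Zfp503 and Zfp703 regulate differentiation of neural and other progenitors. CpG methylation near a transcript start is usually low where the promoter can be used, while most CpGs between genes are methylated. In ganglion DNA a change within cells and a change in the mix of cell types cannot be told apart.

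RefSeq promoter windows (GRCr8, from 250 bases before to 50 bases after a start) were at hand for 56 of the 71 genes, 60 windows in all. They held a median of 14.5 CpGs, against 7.0 over 33469 windows of all genes. The letters CCGG, which MspI cuts and which read the same on both strands, stood in 71.7% of the zinc finger windows and in 51.4% of all windows. The zinc finger windows belong to genes with measured sites, while all windows cover 27457 genes, many without any. Windows of other measured genes were not compared. The windows of Zfp772, Zfp64 and Zfp521 are shown, each read 5′ to 3′ on the gene's minus strand with CpGs in capitals. The Zfp772 window is shown because it held 2 measured CpGs, and both stood at a CpG of the window, 248 and 212 bases upstream of the start. Zfp64 is shown because CpGs farther upstream of its start were highly methylated, and Zfp521 because it had the most promoter CpGs measured. The measured CpGs of these genes lay outside the windows, so no CpG of the Zfp64 or Zfp521 window shown was measured. Zfp772 and Zfp521 were chosen after their values were seen.
Zfp772 promoter, chr1:75742431-75742730: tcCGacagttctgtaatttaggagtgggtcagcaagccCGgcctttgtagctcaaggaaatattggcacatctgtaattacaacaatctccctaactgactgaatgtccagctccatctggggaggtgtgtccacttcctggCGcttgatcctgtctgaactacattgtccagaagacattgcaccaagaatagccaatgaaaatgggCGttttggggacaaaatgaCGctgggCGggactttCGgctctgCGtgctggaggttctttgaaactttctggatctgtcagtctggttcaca
Zfp64 promoter, chr3:178114508-178114807: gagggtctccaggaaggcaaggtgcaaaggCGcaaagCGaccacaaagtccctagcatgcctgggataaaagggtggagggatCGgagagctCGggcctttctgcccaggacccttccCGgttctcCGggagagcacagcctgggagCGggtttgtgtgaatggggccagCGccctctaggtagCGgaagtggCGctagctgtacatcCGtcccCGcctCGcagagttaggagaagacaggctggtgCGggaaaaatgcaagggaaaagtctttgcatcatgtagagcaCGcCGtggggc
Zfp521 promoter, chr18:5343005-5343304: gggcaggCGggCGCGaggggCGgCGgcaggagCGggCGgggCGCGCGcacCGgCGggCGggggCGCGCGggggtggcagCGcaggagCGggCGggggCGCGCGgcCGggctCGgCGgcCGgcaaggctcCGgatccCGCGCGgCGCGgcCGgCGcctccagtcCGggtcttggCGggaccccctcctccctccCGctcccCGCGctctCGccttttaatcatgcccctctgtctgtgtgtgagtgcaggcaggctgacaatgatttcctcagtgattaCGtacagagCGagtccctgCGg
The Zfp772 window held 8 CpGs, the Zfp64 window 16 and the Zfp521 window 43, with 1, 2 and 6 CCGG sites.

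The 392 sites were spread over 20 chromosomes. Chromosome 1 held 17 of the genes with 67 sites, chromosome 3 held 6 genes with 95 sites and chromosome 18 held 6 genes with 60 sites. A gene had a median of 3.0 sites, 15 genes had 1 site, and the 12 genes with 10 or more sites held 201 of them. Sites were assigned to the nearest start, at a median distance of 52.3 kb, and 37 of the 71 genes had no site within 10 kb of their start. The authors' flags placed 295 sites (75.3%) between genes, 60 in introns, 17 in exons and 20 in promoters, within 1 kb of a start. Intergenic sites made up 64.2% of all annotated sites and intron sites 24.7%, against 15.3% here. A gene name below thus marks the nearest start and not a site within the gene. Every site had 100 reads or more in all 6 libraries, and the coverage of zinc finger sites ran from 100 to 2656 reads. Coverage summed over all listed nuclear CpGs was 27131679 to 34226084 per library, where a read over several CpGs counts once for each. Marker genes of sensory neurons had 95 sites, those of Schwann and satellite glia 61 and those of immune and vascular cells 43. These methylation values do not measure marker expression, so the tissue label was not checked by them.

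Few zinc finger sites passed the test of SNL against Sham. Of their 392 sites, 1 was called different between SNL and Sham at an adjusted p under 0.05 (0.255%), and it was higher after SNL. The call rule was a logistic test of methylated and unmethylated reads whose overdispersion was moderated with limma across all sites, adjusted by Benjamini-Hochberg over all 32674 sites. Over all annotated sites the same rule called 464 (1.42%), of which 405 were lower (1.24%) and 59 higher (0.181%). No zinc finger site was called lower. In simulated data the rule recovered 36% of changes of 10 points, so a site that was not called can still differ. It also made 20 false calls there beside 127 recovered changes, a larger false share than the 0.05 aimed at. A called site can thus be false more often than its adjusted p states. Without Sham 1 the count was 0, and without SNL 1 it was 4, with lower sites at Zfp563, Zfp365 and Zfp521 besides the higher one. The shares of all annotated sites called in these fits are not given here, so this swing is not read as particular to zinc finger sites. With library offsets that put the median of all sites at no change, a shift of -0.0749 on the logit scale, 412 sites were called in all (1.26%), split into 238 lower (0.728%) and 174 higher (0.533%), and the zinc finger count stayed at 1 higher. At an unadjusted p under 0.05 there were 32 zinc finger sites (8.16%) in 24 genes, 26 lower and 6 higher, against 13.1% of all sites, 10.3% lower and 2.88% higher. Of these 32 sites, 30 lay more than 10 kb from the start of the gene, where most zinc finger sites lie (19.4% were within 10 kb). Within 10 kb 2.63% of zinc finger sites had such a p, against 10.1% over all genes. From 10 to 100 kb it was 6.36% against 12.7%, and at 100 kb or more 13.3% against 15.9%.

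The called site lay on chromosome 3 at position 159923292 (rn4), between genes and outside CpG islands and shores, 79.8 kb downstream of the start of Zfp93, a zinc finger gene on the minus strand. Its methylation was 68.50%, 60.93% and 62.78% in SNL 1 to 3 and 51.12%, 53.71% and 56.24% in Sham 1 to 3, with 761 to 1038 reads per library. All 3 SNL libraries were above all 3 Sham libraries. The group means were 64.1% ± 3.95 (SD, n = 3) and 53.7% ± 2.56 (SD, n = 3), a difference of 10.4 ± 2.72 points (SE). The limma-moderated logistic test gave an adjusted p of 0.00941. Without Sham 1 the adjusted p was 0.0554, so the call was lost, while it was 0.00594 to 0.0447 when any other single library was left out. The call was also lost with the replicate number as a block (adjusted p = 0.0892), with limma on logit values (0.402) and without moderation across sites (0.805), and the last 2 fits called no annotated site at all. In the authors' deposited table the same site had a difference of 10.5 points and a q-value of 0.0088.

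**Figure D1:**
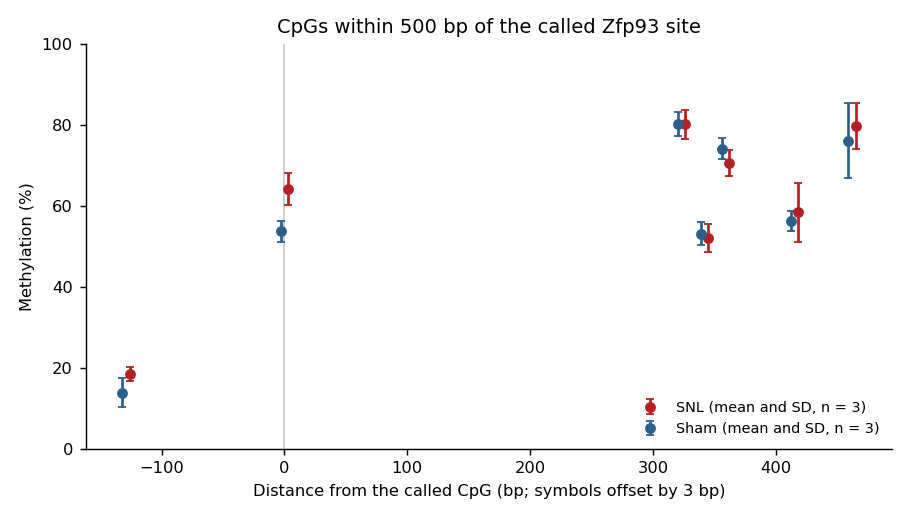
Methylation (percent, y axis) of the CpGs with 20 reads or more in all libraries within 500 bp of the called Zfp93 site, by distance from it in bp (x axis). Points are means and bars SDs of 3 SNL (red) and 3 Sham (blue) libraries. The groups separate at the called CpG (64.1% against 53.7%), and the CpGs 323 to 462 bp away lie within 4 points of each other.

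The neighbouring CpGs did not show a difference of that size. The CpG 129 bp to the other side had 18.6% ± 1.72 in SNL and 13.8% ± 3.60 in Sham (SD, n = 3 each) at only 62 to 89 reads. At 323 bp the means were 80.2% and 80.3%, at 342 bp 52.0% and 53.1%, and at 359 bp 70.6% and 74.1%. None of these neighbours was called in the test over the 210270 sites with 20 reads or more, where the CpG at 359 bp had an adjusted p of 0.488. The higher methylation near Zfp93 was thus measured at 1 CpG, and no other CpG within 500 bp passed the test.

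Zfp93 had 24 sites in all, from 16.3 to 112.9 kb from its start, and 11 of them were lower in SNL. A cluster of 4 CpGs, 81.8 to 81.9 kb from the start, was almost unmethylated, at 2.51% to 4.43% over the 6 libraries. The 5 CpGs 16.3 and 18.6 kb upstream, which the authors flagged as intronic and which can lie in another transcript, had 91.7% to 97.1% in both groups. Summed over its 24 sites, Zfp93 had 70.4% ± 1.62 in SNL and 68.4% ± 2.26 in Sham (SD, n = 3), with an adjusted p of 0.506 in the limma-moderated test over 8016 genes.

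The next 5 sites by p missed the threshold, and their groups did not overlap. Sites picked by low p tend to separate in this way, and 17.8% of all annotated sites did, so the separation is not further evidence. Zfp563 had 2 CpGs measured, 14 bp apart on chromosome 7 and 24.7 kb downstream of its start. At position 13852113 methylation was 89.88%, 86.77% and 86.83% in SNL and 91.28%, 92.43% and 91.33% in Sham, a difference of -3.86 ± 1.09 points (SE) with an adjusted p of 0.0577 by the limma-moderated test (0.0121 without SNL 1). At position 13852127 it was 92.29%, 92.40% and 90.39% in SNL and 94.74%, 95.87% and 93.54% in Sham (-3.02 ± 0.937, adjusted p = 0.0814). Both CpGs were lower in every SNL library than in any Sham library, with 824 to 1169 reads behind each value, and CpGs 14 bp apart can be read on the same fragments.

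Near Zfp365, which encodes a DISC1-binding protein expressed in brain, a CpG at position 21649733 of chromosome 20, 159.2 kb downstream of the start, was at 7.59%, 4.75% and 4.90% in SNL and at 10.28%, 10.66% and 17.57% in Sham. The difference was -7.09 ± 2.54 points (SE) with an adjusted p of 0.072 in the limma-moderated test (0.0438 without SNL 1). Sham 3 stood highest at 17.57%. The 4 other CpGs within 500 bp also had lower means in SNL, for example 2.36% against 10.1% at 269 bp and 4.06% against 12.3% at 276 bp. None of these 4 was called at 20 reads or more. A group of 4 CpGs within 22 bp, starting at position 21605867 and 115.3 kb from the start, differed by -10.6, -5.14, -6.67 and -9.75 points, with adjusted p-values from 0.173 to 0.642. Of the 7 Zfp365 sites, 6 had lower means in SNL. The 4 CpGs within 22 bp are among these 6 and can be read on the same fragments, so they are not separate evidence.

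Zfp112 showed the largest difference of any zinc finger site, and it was not called. Its CpG at position 79358942 of chromosome 1, 28.5 kb downstream of the start, was at 56.29%, 57.49% and 52.66% in SNL and at 62.89%, 74.69% and 69.66% in Sham. The difference was -13.6 ± 3.71 points (SE) at 145 to 207 reads, with an adjusted p of 0.085 by the limma-moderated test. The neighbouring CpG 45 bp away had 94.7% and 93.2%, in the opposite direction. The Zfp608 site was higher in every SNL library, at position 50529195 of chromosome 18 and 120.6 kb upstream. It was at 21.82%, 16.67% and 15.58% in SNL and at 12.83%, 10.65% and 8.08% in Sham, a difference of 7.50 ± 2.36 points (adjusted p = 0.111). Another Zfp608 CpG, 107.6 kb downstream, had means of 5.05% in SNL and 10.4% in Sham (adjusted p = 0.234), so the sites assigned to this gene did not share a direction. Zfp112 was named after its values were seen.

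**Figure D2:**
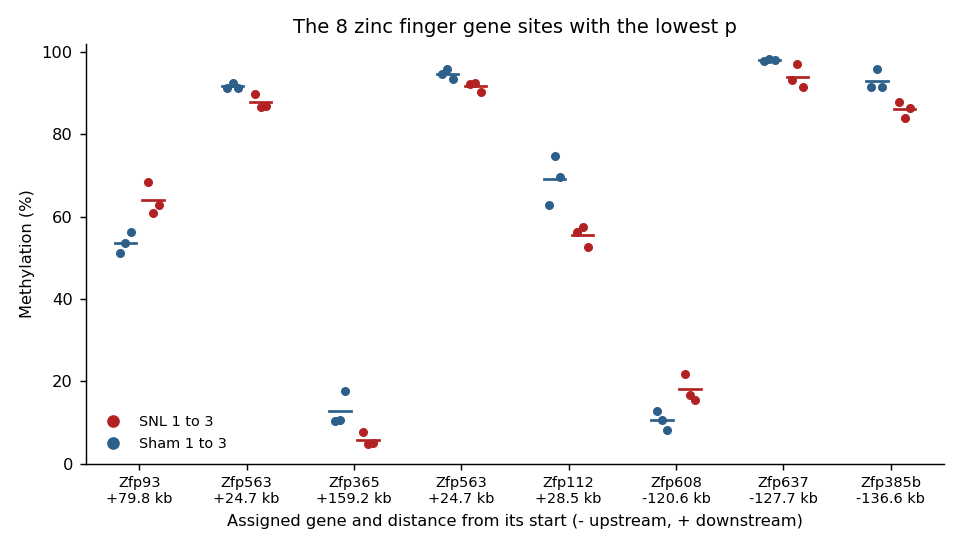
Methylation (percent, y axis) of the 8 zinc finger gene sites with the lowest p, labelled by assigned gene and distance from its start in kb (x axis). Points are the 3 SNL (red) and 3 Sham (blue) libraries and lines their means, and 1 of the 8 sites, Zfp93, had an adjusted p under 0.05 (0.00941).

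Under the test of all 210270 sites with 20 reads or more, 5 of the 392 zinc finger sites were called, against 2.47% of all annotated sites (1.97% lower and 0.502% higher) and 0.568% of all 210270 (0.47% lower and 0.098% higher). They were the Zfp93 site higher, with an adjusted p of 2.77e-05, and the 4 sites of Zfp563 (0.0169 and 0.0334), Zfp365 (0.0216) and Zfp112 (0.0464) lower. By the q-value of the authors' deposited table, 11 zinc finger sites of 10 genes were under 0.05 (2.81%), 9 lower and 2 higher. The shares of all annotated sites were 4.54%, 3.83% lower and 0.707% higher. These 11 included the 6 sites above and 1 each of Zfp637, Zfp385b, Zfp516, Zfp385d and Zfp36l2. The share of zinc finger sites called was below that of all annotated sites both by the main rule and by the authors' q-value. This difference in share was not tested, because the sites of 1 gene are not independent.

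The sizes of the differences were small at most sites. Site differences ran from -13.6 to 10.4 points, 260 of 392 sites (66.3%) differed by less than 2 points, and 40 by 5 points or more. The 3 sites beyond 10 points belonged to Zfp93, Zfp112 and Zfp365. At 230 sites (58.7%) the SNL mean was lower, against 61.3% of all annotated sites, and with library offsets these shares were 45.2% and 50.0%. The groups did not overlap at 55 sites (14.0%), against 17.8% of all sites (13.2% lower and 4.64% higher). The median site difference was -0.34 points, and it was -0.55 points over all annotated sites. Replicate spread was similar, with a median SD of 1.88 points here and 2.03 over all sites.

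**Figure D3:**
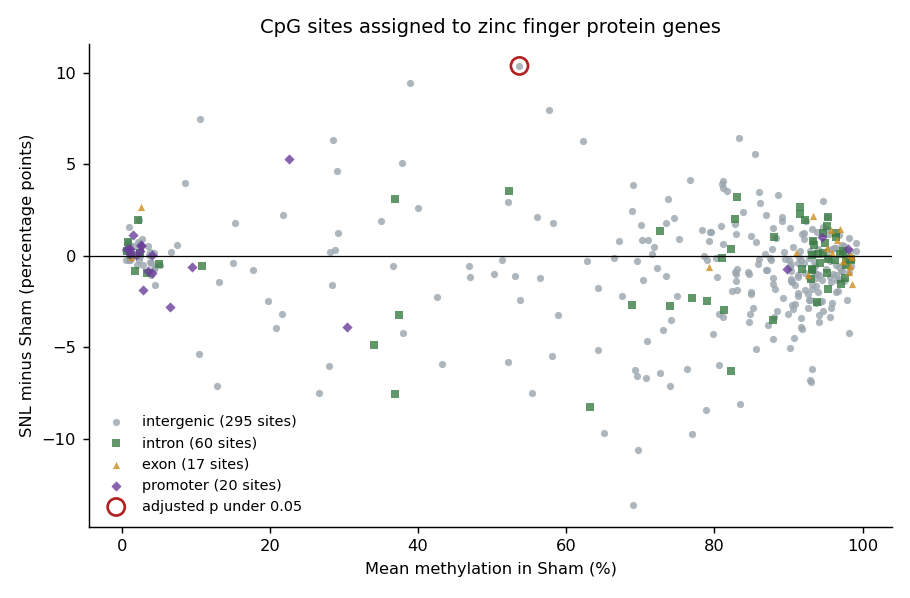
Difference in methylation (SNL minus Sham, percentage points, y axis) against the Sham mean (percent, x axis) for the 392 sites, with symbols for the authors' site classes. Most points lie within 2 points of the zero line, and the circled Zfp93 site is the 1 called.

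Averaged over the 392 sites, methylation was 68.62%, 67.66% and 67.19% in SNL 1 to 3 and 68.20%, 68.67% and 68.56% in Sham 1 to 3. SNL 1 was above Sham 1, so the groups overlapped. The means were 67.8% ± 0.73 and 68.5% ± 0.24 (SD, n = 3), a difference of -0.66 points, and over all annotated sites they were 67.3% ± 0.79 and 68.2% ± 0.43, a difference of -0.92 points. Without SNL 3 the zinc finger difference was -0.337 points and without SNL 1 it was -1.055. No test was made on this mean, because the sites were chosen by gene name with earlier results known.

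By genomic class (intergenic, intron, exon and promoter), the mean differences were smaller than 1 point. Intergenic zinc finger sites had 69.3% ± 0.91 in SNL and 70.1% ± 0.26 in Sham (-0.79 points, n = 295). Intron sites had 72.4% ± 0.09 and 72.8% ± 0.37 (-0.47 points, n = 60), and the 17 exon sites 84.4% ± 0.51 and 84.1% ± 0.33. Promoter sites had 19.0% ± 0.32 and 19.0% ± 0.34. CpG island sites, 20 in 6 genes, had 2.23% ± 0.16 in SNL and 1.86% ± 0.25 in Sham. At 143 sites 100 kb or more from a start the difference was -0.86 points, against -1.30 points over all such sites. By level, 225 sites were above 80% on average, 98 between 20% and 80%, and 69 below 20%. The intermediate 98 averaged 58.3% ± 1.55 after SNL and 59.8% ± 1.14 after Sham (SD, n = 3), or -1.52 points, against -1.46 points over all intermediate sites. Intermediate sites, where most calls over all annotated sites fell (318 of 464), made up 25.0% of zinc finger sites and 30.9% of all sites. Of the intermediate sites 1.02% were called here and 3.15% over all genes, and of the sites above 80% none and 0.703%, with 12 such zinc finger sites (5.33%) at an unadjusted p under 0.05 against 11.1% over all genes.

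The promoters of the 8 zinc finger genes with a promoter site differed more from each other than between the groups, and all 8 are described. Zfp521 is a many-fingered transcription cofactor that holds progenitors back from differentiation. Its 8 promoter CpGs, 266 to 626 bp from the start, were almost unmethylated, at 1.20% to 3.14% in SNL and 0.976% to 3.52% in Sham. The most deeply read of them, at position 5148193, had 1.53%, 1.51% and 1.04% in SNL and 0.92%, 0.83% and 1.18% in Sham at 1702 to 2656 reads, and the libraries overlapped (adjusted p = 0.472, the lowest of the 8). Zfp445, a KRAB protein that helps to keep imprints, had 2 CpGs at 198 and 205 bp with 3.19% and 1.00% in SNL and 2.58% and 0.645% in Sham. The 2 Zfp772 CpGs within the window shown above had 3.77% and 3.14% in SNL and 6.55% and 4.05% in Sham, with the lower adjusted p at 0.653. The 2 Zfp580 CpGs, 769 and 799 bp away, had 4.12% and 0.994% in SNL and 4.07% and 2.87% in Sham. The promoter CpGs of these 4 genes had group means of 6.55% or lower, and none passed the test.

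At the other end, Zfp64, a coactivator in Notch signalling, had 2 CpGs 907 and 916 bp upstream at 89.1% and 95.6% in SNL and 89.9% and 94.5% in Sham. The Zfp74 CpG 997 bp upstream was at 98.4% and 98.0%. Zfp110 was intermediate: its 1 CpG, 667 bp from the start, had 31.48%, 26.52% and 25.45% in SNL and 21.90%, 21.43% and 24.29% in Sham. Every SNL value was above every Sham value, and with 108 to 140 reads the difference of 5.28 points had an adjusted p of 0.583 in the limma-moderated test. Zfp385a, an RNA-binding p53 cofactor, had one CpG at 26.5% ± 0.507 in SNL and 30.4% ± 1.24 in Sham (adjusted p = 0.618), with 27.01%, 26.00% and 26.51% below 31.84%, 29.76% and 29.63%. None of the 20 promoter sites was called by the limma-moderated test, against 0.838% of all promoter sites, and 1 of the 20, the Zfp580 CpG at 799 bp, had an unadjusted p under 0.05 (against 5.66% of all promoter sites).

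**Figure D4:**
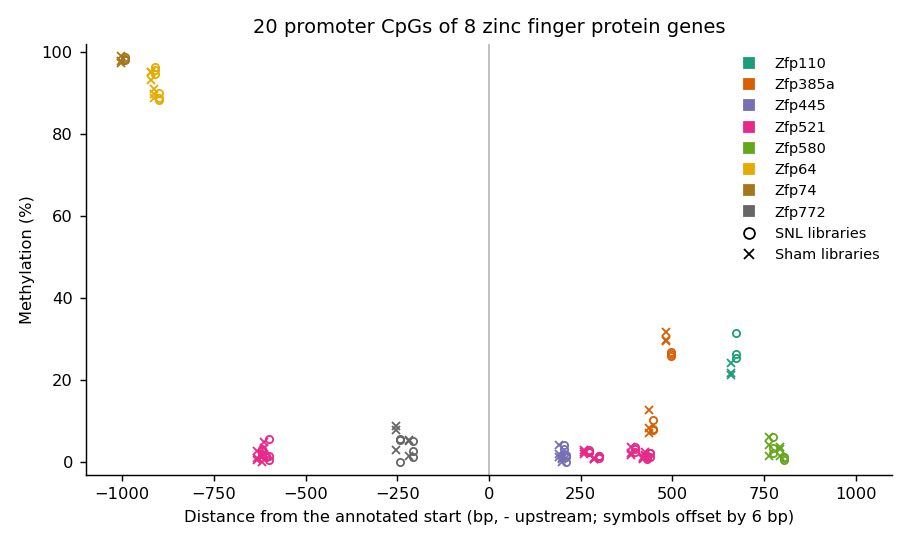
Methylation (percent, y axis) of the 20 promoter CpGs of 8 zinc finger genes by distance from the annotated start in bp (x axis), with circles for the 3 SNL and crosses for the 3 Sham libraries. Zfp64 and Zfp74 lie at 88.40% or higher, Zfp110 and one CpG of Zfp385a between 21.43% and 31.84%, and the rest at 12.80% or lower in both groups.

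Low methylation was not limited to promoters. Outside them, 54 sites of 14 genes were below 20% on average, of which 13 were in CpG islands, 17 on shores and 24 in neither. The 5 island CpGs assigned to Zfp260, 36.6 kb from its start in an intron, had averages of 0.89% to 3.19%, and the 4 assigned to Zfp131, 280.2 kb upstream, 1.73% to 4.14%. Zfp217, a cofactor of CtBP corepressor complexes, had 8 such sites from 11.2 to 373.3 kb, at 0.84% to 18.8%. Zfp362 had 4 low sites outside islands and shores, 10.6 to 10.9 kb away, at 0.63% to 2.83%. The largest SNL difference at these low sites was 7.50 points at the Zfp608 site above, and it was at most 1.99 points at Zfp260, 1.56 at Zfp131 and 0.73 at Zfp362. Except for Zfp217, these genes were named after their values were seen.

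Reads summed over all sites of a gene gave 0 called genes among the 71, against 43 of 8016 (0.536%), 41 lower (0.511%) and 2 higher (0.025%). At an unadjusted p under 0.05 there were 7 zinc finger genes, 6 lower and 1 higher (9.86%), against 13.7% of all genes. The limma fit on logit values gave the same number, 7, and the unmoderated test 3, and the shares of all genes under these fits are not given here. Gene differences ran from -8.24 points (Zfp609) to 2.84 points (Zfp110) with a median of -0.58 points, and 51 of 71 (71.8%) were lower, against 66.9% of all genes. With library offsets these shares were 49.3% and 49.0%. The groups did not overlap for 14 genes (19.7%), 11 of them lower, against 19.5% of all genes. The share without overlap thus lay near that of all genes. A gene sum weighs sites by their reads in each library, so it can shift without a change at any site. For example, the 2 Zfp110 sites, at levels of 25.2% and 86.0%, went in opposite directions, 1 of them lower in SNL.

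**Figure D5:**
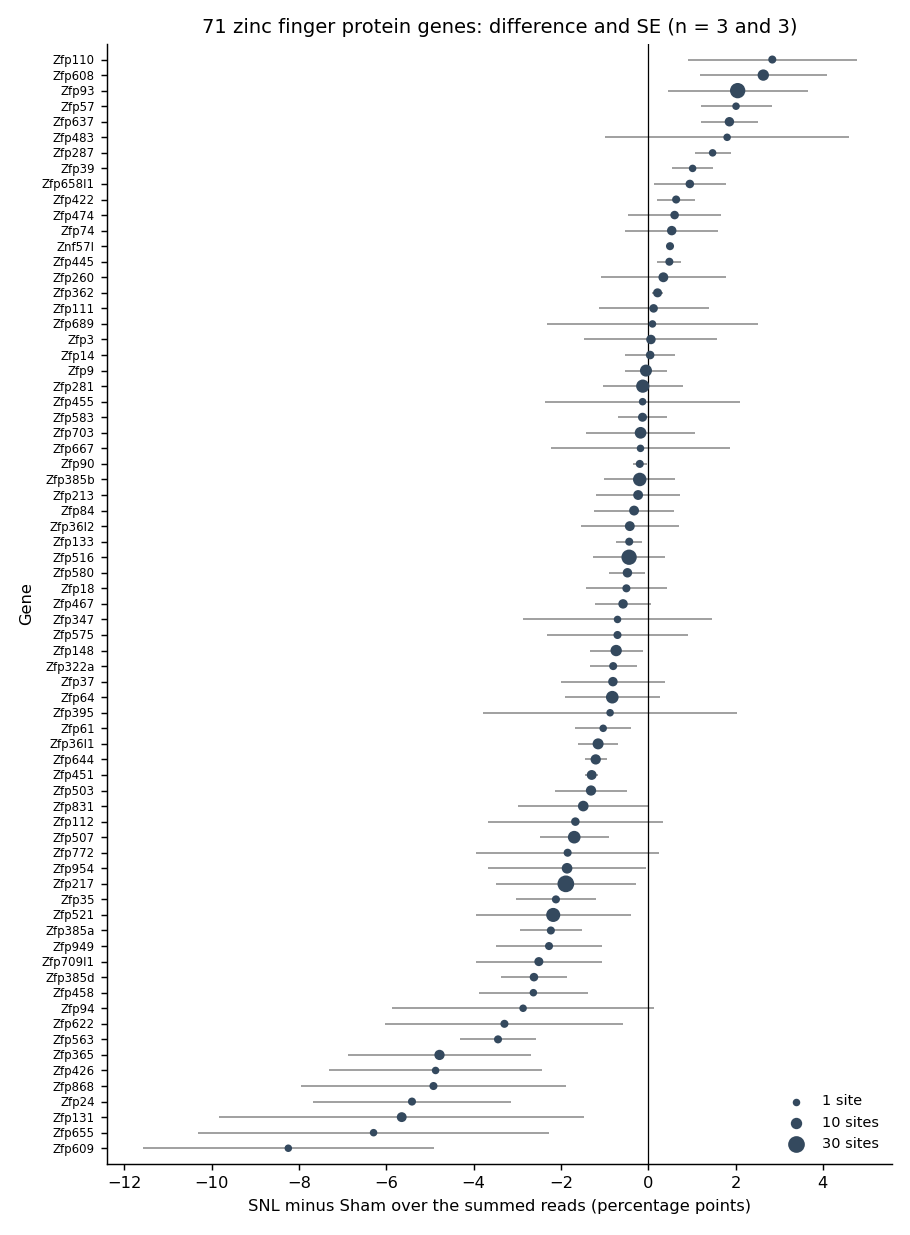
Difference in methylation over the summed reads (SNL minus Sham, percentage points, x axis) with its SE for each of the 71 zinc finger genes (y axis), where the size of a point shows the number of sites. Differences run from -8.24 (Zfp609) to 2.84 points (Zfp110), and no gene had an adjusted p under 0.05.

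Zfp563 had the lowest gene p, with 91.08%, 89.57% and 88.61% in SNL and 93.01%, 94.14% and 92.43% in Sham over its 2 CpGs (89.8% ± 1.25 and 93.2% ± 0.87, adjusted p = 0.129 in the limma-moderated test). Zfp365 followed with 69.10%, 68.96% and 65.70% in SNL and 69.17%, 74.33% and 74.60% in Sham over 7 sites (adjusted p = 0.246). In both genes every SNL value was below every Sham value, although SNL 1 and Sham 1 of Zfp365 differed by little. Zfp451, a SUMO ligase, had the tightest replicates of the leading genes: 84.15%, 83.95% and 84.14% in SNL and 85.35%, 85.63% and 85.15% in Sham over 6 sites, all 6 with lower means in SNL (adjusted p = 0.326). Of all annotated sites 61.3% had lower means too. With library offsets the limma-moderated test gave adjusted p-values of 0.848 for Zfp451 and 0.21 for Zfp637, described next. Zfp637 was the 1 gene among the 7 that was higher, at 84.82%, 86.51% and 85.00% in SNL and 83.02%, 84.26% and 83.47% in Sham. Its 5 sites lay 127.3 to 207.2 kb upstream, and 1 of them had a lower mean in SNL. The remaining genes by p had adjusted values of 0.393 to 0.473: Zfp36l1, Zfp608, Zfp35, Zfp458 and Zfp24. Zfp24, a factor needed for myelination in the central nervous system, had 31.8% ± 3.31 in SNL and 37.2% ± 2.14 in Sham over 2 intron CpGs 4.9 kb from its start.

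Of the CCCH list, 2 of 3 genes had sites, 15 in all, and none was called by the limma-moderated test (1 at an unadjusted p under 0.05, against 13.1% of all sites). Zfp36l1 had 13.8% ± 0.575 in SNL and 15.0% ± 0.549 in Sham over 9 sites (SD, n = 3, adjusted p = 0.393). Its CpGs fell into unmethylated ones, 6 sites 1.4 to 28.3 kb from the start at 1.01% to 4.86%, and 3 methylated ones, of which the CpG 493.9 kb away had 66.3% and 72.7%. Zfp36l2 was methylated at 87.1% ± 0.951 and 87.5% ± 1.70 over 6 sites. Its CpG 62.0 kb from the start had 89.21%, 86.75% and 87.33% in SNL and 91.15%, 92.21% and 91.96% in Sham, without overlap (adjusted p = 0.21).

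Of the 21 listed neural and developmental zinc finger symbols, 9 had sites, 84 in all, and none was called. At an unadjusted p under 0.05, 7 were lower and 2 higher, against 13.1% of all sites (10.3% lower and 2.88% higher). Their median site difference was -0.27 points, against -0.55 points over all sites, and 8 of the 9 gene sums were lower by any amount, against 66.9% of all gene sums. Zfp609, a regulator of cortical progenitors, was measured at 1 intron CpG 12.4 kb from its start, with 53.85%, 60.09% and 50.84% in SNL and 59.79%, 66.42% and 63.29% in Sham. SNL 2 at 60.09% was above Sham 1 at 59.79%, so the groups overlapped (gene sum adjusted p = 0.366). Zfp385d had 91.6% ± 0.778 and 94.2% ± 1.06 (adjusted p = 0.257), and its CpG 30.4 kb upstream had 85.03%, 87.32% and 86.13% in SNL and 94.59%, 92.26% and 92.00% in Sham (adjusted p = 0.164). Zfp507 had lower means at 13 of its 14 intergenic sites and summed to 85.4% ± 1.20 and 87.1% ± 0.641 (adjusted p = 0.364). With library offsets the limma-moderated test gave adjusted p-values of 0.636 for Zfp507 and 0.202 for Zfp608. Zfp608 was the gene of this list with the higher sum in SNL, 75.0% ± 2.29 against 72.3% ± 1.02. Zfp503, Zfp703, Zfp385b and Zfp385a had adjusted p-values of 0.516 to 0.988.

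The 5 genes with most sites showed how much levels vary around 1 gene. Zfp217 had 30 sites between positions 160609911 and 161265764 of chromosome 3 with levels from 0.84% to 96.2%, and 22 of them had lower means in SNL. Its sums were 52.14%, 50.59% and 48.08% in SNL and 53.45%, 49.99% and 53.04% in Sham, with overlap (adjusted p = 0.555). Zfp516, a transcription factor of brown fat genes, had 24 sites at 75.4% ± 0.996 and 75.8% ± 1.01 (adjusted p = 0.903). Zfp521 had 19 sites, of which the 8 promoter CpGs had 3.52% or less and the 4 intron CpGs 92.4% to 97.7% in SNL. Its CpG 378.1 kb downstream had 66.46%, 51.67% and 48.26% in SNL and 66.07%, 64.67% and 64.63% in Sham, with SNL 1 at the Sham level (adjusted p = 0.309, and 0.046 without SNL 1). Zfp385b had 17 sites at 69.7% ± 0.320 and 69.9% ± 1.36. In 18 of the 56 genes with several sites, levels spanned more than 50 points.

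Zfp57 and Zfp445, the KRAB proteins best known for keeping imprints, were looked up for that role after values were seen. Zfp57 had 1 CpG, in an intron 2.7 kb from the start, with 85.62%, 85.37% and 83.51% in SNL and 82.61%, 83.72% and 82.14% in Sham, which overlapped (adjusted p = 0.699).

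Genes of the machinery that KRAB zinc finger proteins use, and of other zinc finger families, give the context. Of 20 listed KRAB cofactor and DNA methyltransferase genes 6 had sites, 14 in all, and 1 was called, lower after SNL, against 1.42% of all annotated sites (1.24% lower). It lay 19.6 kb downstream of the start of Cbx3, which encodes the heterochromatin protein HP1 gamma, at position 79726924 of chromosome 4. Its values were 26.20%, 19.57% and 22.47% in SNL and 32.33%, 29.41% and 40.31% in Sham, without overlap and with Sham 3 highest, and the difference was -11.3 ± 3.78 points (SE) at 204 to 752 reads (adjusted p = 0.0303 in the limma-moderated test). That call was lost when SNL 2, SNL 3 or Sham 3 was left out (adjusted p = 0.0763, 0.0914 and 0.242 in the limma-moderated test). It was also lost with the replicate block (0.114), with limma on logit values (0.376), without moderation (0.805) and among sites of 200 reads or more (0.0546).

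The other zinc finger families, such as Egr, Gata, Klf, Sall and Zbtb genes, had 495 sites in 69 genes. The test called 6 of them (1.21%), 5 lower after SNL and 1 higher. Over all annotated sites the share was 1.42%, 1.24% lower and 0.181% higher. With library offsets the count was 4, 2 in each direction, and 3 of the 6 sites (Sall1, Klf12 and Zbtb7a) were still called, against 1.26% of all sites. The lower sites were those of Sall1 (-17.3 ± 3.19 points, adjusted p = 0.0077 in the limma-moderated test), Sall3 (-4.43, 0.029), Egr2 (-12.8, 0.0311), Klf12 (-10.7, 0.0329) and Gata3 (-6.18, 0.0492). The higher one was at Zbtb7a (4.48 ± 0.857 points, adjusted p = 0.0442). Egr2, which drives myelin genes in Schwann cells, had its called CpG 46.5 kb upstream of the start, with 39.16%, 33.61% and 34.85% in SNL and 50.85%, 48.00% and 47.29% in Sham. The Sall1 call was kept in 5 of 6 fits that left out 1 library, the Sall3 call in 3, the Klf12 call in 2, and those of Egr2, Zbtb7a and Gata3 in 1. No gene sum of either list was called. The difference between these shares and the 0.255% of the Zfp and Znf genes was not tested. Leaving out single libraries gave 0 to 7 called sites in these families, with 0 without Sham 3 and 1 without Sham 2. The shares of all annotated sites in these fits are not given here.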

How the data were processed

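Methylation was read in 6 RRBS libraries, 3 SNL and 3 Sham. Per the submitters' processing notes, Bismark 0.18.1 with Bowtie2 aligned the reads to rn4 and methylKit 1.3.3 analysed them. A human assembly is named instead in the labels' protocol, and positions are printed unchanged from the files and taken as rn4. Per the file headers, the deposited library files hold each CpG's coverage as a read count with the percent of C and T. The deposited series table holds the authors' percent methylation, p-value, q-value, difference and annotation flags at sites with coverage of 100 reads or more. Mitochondrial sites were left out.

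Methylated read counts were recovered as coverage times the percent of C. RefSeq identifiers were matched to symbols in a RefSeq table of GRCr8, used for names and promoter windows only (7622 of 8123 transcripts). Each site, and the counts summed per gene, was tested by quasi-binomial logistic regression on group (SNL, Sham). Pearson overdispersion, on 4 residual degrees of freedom, was moderated with limma's squeezeVar (prior 13.6 degrees of freedom) and kept at 1 or above. P-values of the F test (two-sided) were corrected by Benjamini-Hochberg over 32674 sites or 8016 genes, with calls at 0.05. Neighbouring CpGs can share reads, which a sum counts more than once, and strand is not recorded. A sum over sites of unlike level also shifts with the share of reads each site had in a library. Differences are SNL minus Sham in percentage points with the SE of the difference of means. Intervals and tests cover counting error and the spread between libraries only.

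Alternatives were library offsets, a replicate block, limma on logit values (pseudocount 1), no moderation, coverage of 200 reads or more, differences of at least 10 points, all sites of 20 reads or more, the authors' q-value, membership by synonym, and each library left out. The test was checked on simulated data, in which 100 sites of intermediate level were changed by 10 points and 100 by 20 points. It recovered 36% of the 10-point and 91% of the 20-point changes, 127 in all, and made 20 false calls. Smaller changes were not simulated. The sites and genes named are called sites, the 12 genes with the lowest gene p, genes of the CCCH and neural lists, the 5 genes with most sites, promoter sites with a Sham mean over 20%, and called sites of the KRAB cofactor and other zinc finger lists. A planned part of that rule, on protein finger counts, was not used here. The zinc finger genes, lists and tests were chosen with earlier results of these data known. The work used Python 3.11.15 with numpy 2.4.6, matplotlib 3.10.9 and pandas 2.3.3, and R 4.3.3 with limma 3.58.1 and data.table (version 1.17.8).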

Additional observations from a re-analysis of the deposited data

How the results depend on the processing

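The 1 called zinc finger site became 0 with limma on logit values, without moderation and with a replicate block, 5 (4 lower, 1 higher) in the test of all sites of 20 reads or more, and 11 by the authors' q-value, and it ranged from 0 (without Sham 1) to 4 (without SNL 1) over the left-out libraries. The 6 called sites of other zinc finger families became 0 with limma, without moderation and with the block, 1 at 200 reads or more, 3 at differences of at least 10 points, 10 at 20 reads or more and 27 by the authors' q-value, with a range of 0 to 7 over the left-out libraries. The 1 called KRAB cofactor site became 0 with limma, without moderation, with the block and at 200 reads or more, 2 with library offsets and 2 by the authors' q-value, and ranged from 0 to 1 over the left-out libraries. Of all annotated sites, 1.26% were called with library offsets, 2.47% in the test of sites of 20 reads or more and 4.54% by the authors' q-value. The shares with the block, at 200 reads or more, at differences of at least 10 points and over the left-out libraries are not given here. The cause of these changes was not tested, except that limma on logit values and the unmoderated test called 0 of all 32674 sites too (3480 and 1968 at an unadjusted p under 0.05, of which 32 and 18 were zinc finger sites). For the Zfp93 site the adjusted p was 0.402 with limma, 0.805 without moderation, 0.0892 with the replicate block and 0.0264 at 200 reads or more. Same-numbered SNL and Sham libraries deviated together with correlations of -0.067 to 0.148, and 2 of 6 libraries correlated best with their own number. The numbers were not taken as pairs in the main test. With 3 libraries per group these correlations cannot exclude pairing, and the Zfp93 call was lost with the replicate block. No zinc finger gene was called under any of 13 alternatives, and the 12 named gene sums stayed above the threshold in all 141 refits (lowest adjusted p 0.0627). The mean difference over zinc finger sites stayed negative in its 10 alternatives (-1.055 to -0.337), while that of promoter sites ran from -0.217 to 0.247. Depth limits the precision of the Zfp110 promoter value (108 to 140 reads) and of the Zfp112 value (145 to 207 reads).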
